A study of Mus musculus with 40 samples.

Results

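The cells described here are mouse ES-motor neurons that were grown on ES-astrocytes stimulated with IL-1α and TNF-α. They were chosen by the cell type and treatment named in the sample titles, which gives 4 of the 40 samples in the series, with biological replicates A to D. They are compared with the 4 ES-motor neuron samples labelled control, so 8 libraries carry the main comparison. The 8 ES-astrocyte libraries with the same 2 labels enter only where the responses of the 2 cell types are compared.

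The study asked how astrocytes made reactive by inflammatory mediators affect the motor neurons that touch them. Both cell types came from 1 mouse embryonic stem cell line from B6.Cg-Tg(Hlxb9-GFP)1Tmj/J mice, in which the Hb9 (Mnx1) promoter drives eGFP. Motor neurons were induced with retinoic acid and a smoothened agonist and sorted on eGFP. ES-astrocytes were expanded from dissociated embryoid bodies made by the same protocol and matured with forskolin.

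For the stimulated group, the ES-astrocytes received IL-1α and TNF-α for 24 hours before the sorted motor neurons were plated on them. The neurons were not the cells first given the cytokines, but the astrocyte medium was kept. The authors name a small carry-over of cytokine to the neurons as possible and hold it to be likely negligible because these proteins are short-lived. After co-culture the cells were sorted on eGFP again, and about 200 cells went into each sample for polyA RNA sequencing. A replicate was 1 vial of a defined passage, so the 8 samples share 1 genetic background and differ in culture, sort and library. Because Mnx1 drives the reporter used for the sort, its own RNA is part of how the cells were selected.

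IL-1α and TNF-α act through separate receptors that converge on NF-κB and on the JNK kinases, and both routes switch on chemokines, acute phase proteins and inhibitors that end the response. Astrocytes driven by these cytokines become reactive, secrete such proteins and can harm neurons next to them. Spinal motor neurons are specified by the homeodomain factors Mnx1, Isl1, Isl2 and Lhx3 and use acetylcholine, which Chat makes and Slc18a3 loads into vesicles.

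Depth differed between the groups before any gene was compared. The control libraries held 1280778 counts on genes (A), 19717324 (B), 240859 (C) and 2383502 (D). The stimulated libraries held 117344 (A), 445874 (B), 300549 (C) and 112775 (D). All 4 stimulated libraries were under 500000 counts, and the groups overlapped only because control C was shallow too. All 8 carry plate number 1 in the authors' sample sheet. Among all 20 ES-motor neuron libraries of the series, 9 were under 500000 counts. The mean log10 total was 6.29 ± 0.791 (SD, n = 4) in control and 5.31 ± 0.299 (SD, n = 4) in the stimulated group, with an exact two-sided permutation p of 0.0857, where 0.0286 is the smallest that 4 against 4 allows.

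Genes with at least 1 count numbered 12173, 16274, 8885 and 11242 in control A to D and 9609, 10785, 9338 and 7202 in stimulated A to D. The groups overlapped, and the mean difference of −2910.0 genes had an exact permutation p of 0.143. With all 8 libraries thinned by random sampling to the total of the shallowest, the numbers were 8038, 8654, 7661 and 7589 in control and 9498, 8250, 7779 and 7202 in the stimulated group. Stimulated A was the highest and D the lowest of all 8. The means were 7986 and 8182 genes, with an exact permutation p of 0.743, and 7744 in the stimulated group without library A. In bulk samples such as these, fewer cells and less RNA per cell cannot be told apart. Of 18514 genes with a count in any of the 8 libraries, 5329 had counts in control alone and 706 in the stimulated group alone. Over the stimulated group, 3 counts correspond to 3.26 CPM, which are counts per 1000000 of the TMM-scaled library size over tested genes, against 0.133 CPM over the control group. A gene below the first level cannot be told from absent in the stimulated neurons, and such floors cover counting error only.

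**Figure D1:**
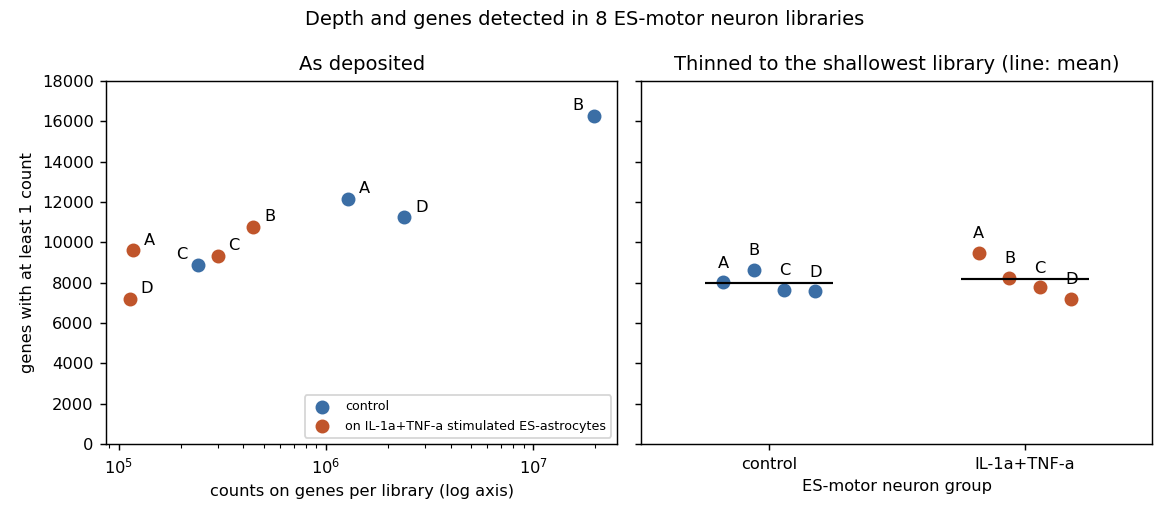
Genes with at least 1 count against total counts per library on a log axis (left), and the same number after thinning to the shallowest library with the group mean as a line (right), for 4 control and 4 stimulated ES-motor neuron libraries labelled A to D. The stimulated libraries lie between 112775 and 445874 counts, and at equal depth the groups overlap.

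Stimulated library A stood apart from the other 7 in composition, and stimulated D came next by 1 measure. The median absolute log2 difference across genes was 0.955 for A and 0.832 for D, against 0.391 to 0.664 for the other libraries. Genes annotated as ribosomal RNA took 2.74% of the counts of library A. They took 0.182 to 0.366% in the other stimulated libraries and 0.176 to 0.878% in control. The mitochondrially encoded share of library A was 1.65%, the lowest of the 8, and its 10 most abundant genes took 10.02% of counts, also the lowest. Across tested genes its Spearman correlation with the other libraries ran from 0.374 to 0.712, where the pairs among the other 7 ran from 0.645 to 0.847, so the ranges overlapped through its pair with control B. This is a description over genes that are not independent. Actb, the cytoskeletal actin, was at 13290.5 CPM there and at 29099 to 118811 CPM in the other 7. Since ribosomal RNA genes, Actb and this library were singled out after their values were seen, each log2 fold change or list median below that turned its sign or moved more than 1.5-fold without library A is also given without it.

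The motor neuron label was checked against the genes that define these cells. Of 20 motor neuron identity genes, 18 had counts in control and 18 in the stimulated group, and all 20 pan-neuronal genes were detected in each. Mnx1 was at 1582, 1799, 818 and 569 CPM in control A to D and at 5383, 999, 1207 and 431 CPM in stimulated A to D. Library A was the highest of all 8, and the other 3 stimulated libraries lay among or below the controls. The log2 fold change was 0.75 (95% interval −0.60 to 2.09) with library A and −0.43 (−1.32 to 0.47) without it.

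Isl1, a partner of Lhx3 in specifying motor neurons, was at 189.6 to 510.4 CPM in control and 159 to 429 CPM in the stimulated group, and the groups overlapped. Slc18a3, the vesicular acetylcholine transporter, was at 26.9, 109, 13.2 and 52.4 CPM in control and at 635, 45.5, 91.9 and 10.5 CPM in the stimulated libraries. Library A was again far above the rest, and its log2 fold change of 1.82 was −0.0043 without it. Tubb3, the neuronal tubulin, had 200.5, 533, 176 and 525 CPM in control and 2445, 237, 494 and 347 CPM in the stimulated libraries. Its log2 fold change of 1.28 (−0.05 to 2.60) likewise became −0.02 (−0.91 to 0.87) without library A.

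Nefl, the light neurofilament, and Stmn2, a growth cone protein that regulates microtubules, were even across the groups. Nefl had 1899, 1690, 1667 and 2628 CPM in control and 1326, 2110, 2180 and 2598 CPM in the stimulated libraries. Stmn2 had 1931, 2366, 3198 and 4048 CPM in control and 2485, 2538, 4038 and 3387 CPM in the stimulated libraries. Their log2 fold changes were 0.06 (−0.87 to 0.98) and 0.11 (−0.85 to 1.07), and 0.21 and 0.20 without library A. Isl2, Lhx3, Chat and Prph had too few counts to be tested. Chat, the enzyme that makes acetylcholine, had 9, 352, 1 and 56 counts in control and 1, 1, 1 and 0 in the stimulated libraries, and Lhx3 had 0, 162, 1 and 0 counts against 5, 9, 0 and 2. Chat was at or under 3 counts in 1 control and all 4 stimulated libraries, and Lhx3 in 3 control and 2 stimulated libraries, so these defining genes are poorly covered.

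Summed over the identity list, stimulated A held 0.874% of its counts in these genes, against 0.232 to 0.298% in stimulated B to D and 0.248 to 0.374% in control. The 10 tested identity genes had a median log2 fold change of 0.22, beside 0.03 over all tested genes, and −0.13 without library A, beside −0.02 over all. The 17 tested pan-neuronal genes had a median of 0.07 with 10 above 0, and 0.000024 with 9 above 0 without library A.

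Several genes that define astrocytes were at or near 0 in both groups, while others had counts. Of 20 astrocyte and radial glia genes, 16 were detected in control and 10 in the stimulated group, at unequal depth. Thinned to the shallowest library, 5, 5, 3 and 6 were detected in control A to D and 6, 5, 5 and 5 in stimulated A to D. Their summed share was 0.0839 to 0.102% of counts in control and 0.0789 to 0.106% in the stimulated group. In the 8 sorted ES-astrocyte libraries the same list took 0.239 to 0.422%. The most abundant by counts was Vim, an intermediate filament also present in young neurons, at 495 to 717 CPM in control and 478 to 642 CPM in the stimulated libraries. Sox9 was at 148 to 483 CPM in control and 55.6 to 473 CPM in the stimulated group, and Id3 at 43.8 to 153 CPM and 52.6 to 286 CPM. Gfap had 1 count in control and 0 in the stimulated group, Slc1a3 had 4 and 0, and Aqp4, Aldh1l1, Gja1 and Fgfr3 had 0 in all 8 libraries. Sox9, Vim and Id3, the 3 tested genes of the list, had log2 fold changes of −0.37, −0.01 and 0.60, and of −0.07, −0.04 and 0.02 without library A, and none passed the test.

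Genes of the other cell types were scarcer still. The 12 fibroblast genes summed to at most 15.9 CPM in any of the 8 libraries, and the most abundant by summed counts was Fn1, with 66 counts in control B, at 3.44 CPM, and 0 in the other 7 libraries. The 10 oligodendrocyte lineage genes gave 4 detected genes and at most 52.8 CPM, and of 12 microglia and macrophage genes only Csf1r and Cd68 were detected. None of the 8 endothelial genes had a count. Pluripotency genes had 2 counts in control, 1 each in Nanog and Esrrb, and 0 in the stimulated group. Interneuron genes had 6 of 14 detected, led by Lhx1 at 23.4, 23.7, 30.8 and 0.504 CPM in control and 0, 4.55, 49.8 and 10.5 CPM in the stimulated libraries, and the 20 proliferation genes summed to 214 to 224 CPM in control and 178 to 270 CPM in the stimulated group.

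**Figure D2:**
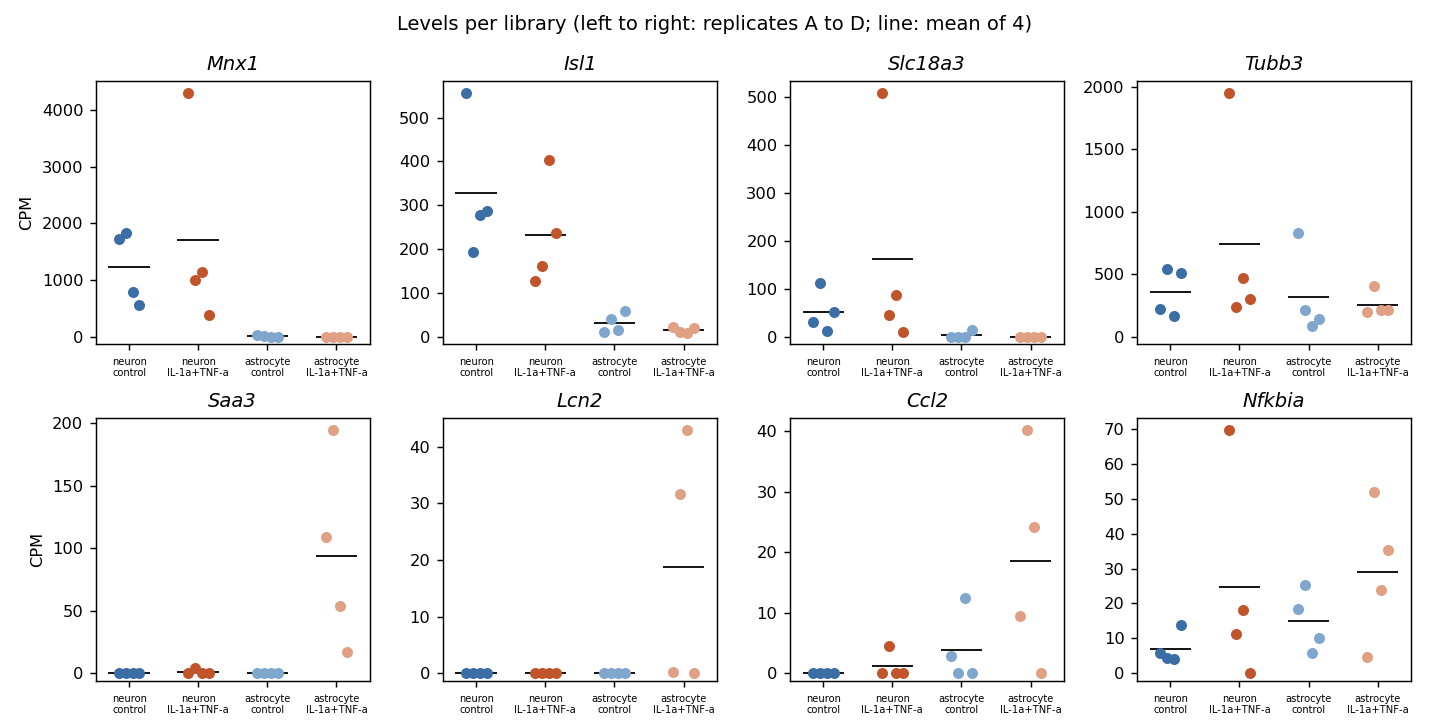
CPM per library, scaled over 16 libraries, of motor neuron genes (top row) and cytokine response genes (bottom row) in control and IL-1α+TNF-α libraries of both cell types; points are replicates A to D from left to right and lines are means. Saa3 and Lcn2 have counts in stimulated ES-astrocytes, while Saa3 has 2 counts and Lcn2 has 0 in the stimulated ES-motor neurons.

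Across all genes, the comparison of neurons on stimulated ES-astrocytes with control neurons called no gene. A gene counted as called when its log2 fold change was beyond 1 in size and its adjusted p in edgeR's quasi-likelihood test did not exceed 0.05. This held for 0 of 4479 tested genes (0.00%), and the smallest adjusted p was 0.990. At an unadjusted p under 0.05 there were 143 genes (3.19%), 69 higher (1.54%) and 74 lower (1.65%) in the stimulated neurons. That number was 74 of 4428 tested genes without control A (36 higher and 38 lower) and 279 of 5427 without stimulated D (158 and 121). It was 133 of 5238 without stimulated A (47 and 86). limma-voom called 0 genes, with 258 of 4479 at an unadjusted p under 0.05 (135 and 123). DESeq2 called 1 gene, Pdxk, with 451 of 18110 (288 and 163). Without a filter on low counts edgeR also called 1 gene, Lypla2, with 1162 of 18514 at an unadjusted p under 0.05 (888 and 274). With all 20 ES-motor neuron libraries in the fit there were 269 of 9479 (80 and 189). Since the fits tested unlike numbers of genes, these counts cannot be compared without those totals. The balance of higher and lower genes thus differed between the fits.

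The precision behind that result was low. The median 95% interval reached 1.11 log2 units to either side of the estimate, 1.33 among the 1493 genes of lowest level and 0.92 among the 1493 of highest level. For 281 genes (6.27%) the interval lay wholly between −1 and 1. A change of 2-fold was therefore not detectable at this depth and spread for most genes, and the absence of calls does not show that the groups were alike. The biological coefficient of variation was 0.480, and genes whose 4 stimulated values lay all above or all below the 4 control values numbered 118 (2.63%), 48 higher (1.07%) and 70 lower (1.56%).

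Pdxk, which makes the active form of vitamin B6, was the gene DESeq2 called. It had 0 counts in all 4 controls and 3, 6, 9 and 0 counts in stimulated A to D, on chromosome 10 from 78436744 to 78464975. Stimulated D lacked counts as every control did, so the groups overlapped. Against a floor of 3 counts over the control group its level was at least 147-fold higher, and at least 21.9-fold higher without control B, the library that gives that group most of its depth. DESeq2 gave it an adjusted p of 0.0197, and edgeR's filter left it out. Lypla2 rested on 1 library, with 32 counts in stimulated A, 0 in stimulated B to D and 1, 50, 0 and 0 in control A to D.

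Among genes lower in the stimulated neurons, the smallest unadjusted p values belonged to Pde7a and Akap5. Pde7a (ENSMUSG00000069094, chromosome 3 from 19223108 to 19311322 in GRCm38), a phosphodiesterase that breaks down cAMP, was at 94.6, 60.0, 141 and 118 CPM in control A to D and at 23.8, 15.9, 34.5 and 21.04 CPM in stimulated A to D. Every stimulated library lay below every control, although the stimulated values rest on 3, 7, 9 and 2 counts. The means were 103 ± 34.5 and 23.8 ± 7.82 CPM (SD, n = 4 each). Its log2 fold change was −2.10 (−3.24 to −0.96), with an unadjusted edgeR p of 0.00104 and an adjusted p of 0.990.

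Akap5 (ENSMUSG00000021057, chromosome 12 from 76324891 to 76334153), a scaffold that holds the cAMP-dependent kinase and calcineurin at synapses, was at 185, 129, 172 and 186 CPM in control and 55.6, 61.5, 69.0 and 42.1 CPM in the stimulated libraries. The groups did not overlap and the 4 values within each were close together, although the stimulated values rest on 7, 27, 18 and 4 counts. The means were 168 ± 26.7 and 57.0 ± 11.4 CPM (SD, n = 4 each). The log2 fold change was −1.52 (−2.40 to −0.64) and the adjusted p was 0.990. Katnbl1, a relative of the microtubule-severing katanins, was at 102, 47.1, 57.2 and 34.8 CPM in control and 7.94, 18.2, 7.66 and 21.04 CPM in the stimulated libraries. Ubxn7, an adaptor of the VCP segregase, was at 30.4, 44.7, 74.8 and 36.8 CPM in control and 0, 15.9, 7.66 and 0 CPM in the stimulated libraries. Both sets of values were separated between the groups, with log2 fold changes of −2.14 and −2.42 that did not pass the adjusted test.

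The other 6 of the 10 lower genes with the smallest p were Socs6, Tbc1d23, Zfp266, Rbbp9, Smim15 and Pcm1, with log2 fold changes from −2.43 to −1.46. Socs6, a member of the suppressors of cytokine signalling, was among them at −2.04, and Pcm1, which builds the particles around centrioles, at −1.54. Zfp266 and Smim15 overlapped between the groups and the other 4 did not, beside 1.56% of all tested genes lower without overlap. The stimulated values of those 4 rest on 0 to 17 counts per library. Without stimulated A the 10 log2 fold changes ran from −2.72 to −1.42, and all 10 kept an unadjusted edgeR p under 0.05. The 10 genes were picked by their p in these same libraries, so this gives no independent support for them.

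Mrps17 and Nsun4 were among the 10 genes of smallest p that were higher in the stimulated neurons. Both act in the mitochondrion, and the share of such genes among all tested genes was not counted. Mrps17, a protein of the small mitochondrial ribosome subunit, was at 92.0, 143, 88.0 and 105 CPM in control and 167, 271, 364 and 168 CPM in the stimulated libraries. Nsun4, which methylates mitochondrial ribosomal RNA, was at 17.4, 29.98, 0 and 8.06 CPM in control and 71.5, 36.4, 107 and 63.1 CPM in the stimulated libraries. The latter rest on 9, 16, 28 and 6 counts. Neither gene overlapped between the groups, and the log2 fold changes of 1.19 (0.34 to 2.04) and 2.12 (0.68 to 3.56) were 1.33 and 2.11 without library A.

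March8, a membrane ubiquitin ligase, was at 25.2, 12.5, 8.80 and 10.6 CPM in control and 31.8, 36.4, 69.0 and 73.6 CPM in the stimulated libraries. Rgs7, which shortens G protein signals in neurons, was at 73.8, 59.9, 30.8 and 30.7 CPM in control and 135, 79.7, 161 and 126 CPM in the stimulated libraries. In both the groups were separate, with log2 fold changes of 1.82 and 1.32, and neither passed the adjusted test. The stimulated values of March8 rest on 4, 16, 18 and 7 counts.

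Fam89b and Arhgdia had the smallest p of the higher genes but rested on library A. Fam89b was at 14.8, 56.3, 0 and 6.55 CPM in control and 437, 54.6, 53.6 and 63.1 CPM in the stimulated libraries. Arhgdia, which keeps small GTPases inactive in the cytosol, was at 36.5, 32.9, 17.6 and 21.7 CPM in control and 302, 34.1, 57.5 and 84.2 CPM in the stimulated libraries. Library A was the highest by far in each and the groups overlapped. Their log2 fold changes of 2.70 and 2.02 were 1.36 (−0.19 to 2.92) and 0.99 (−0.32 to 2.29) without it. Gstp1, a glutathione transferase, went from 1.81 to 1.08 and Ppp2r1a, the scaffold of phosphatase 2A, from 1.78 to 0.53, while Rae1, an mRNA export factor, still had 1.75 without it.

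**Figure D3:**
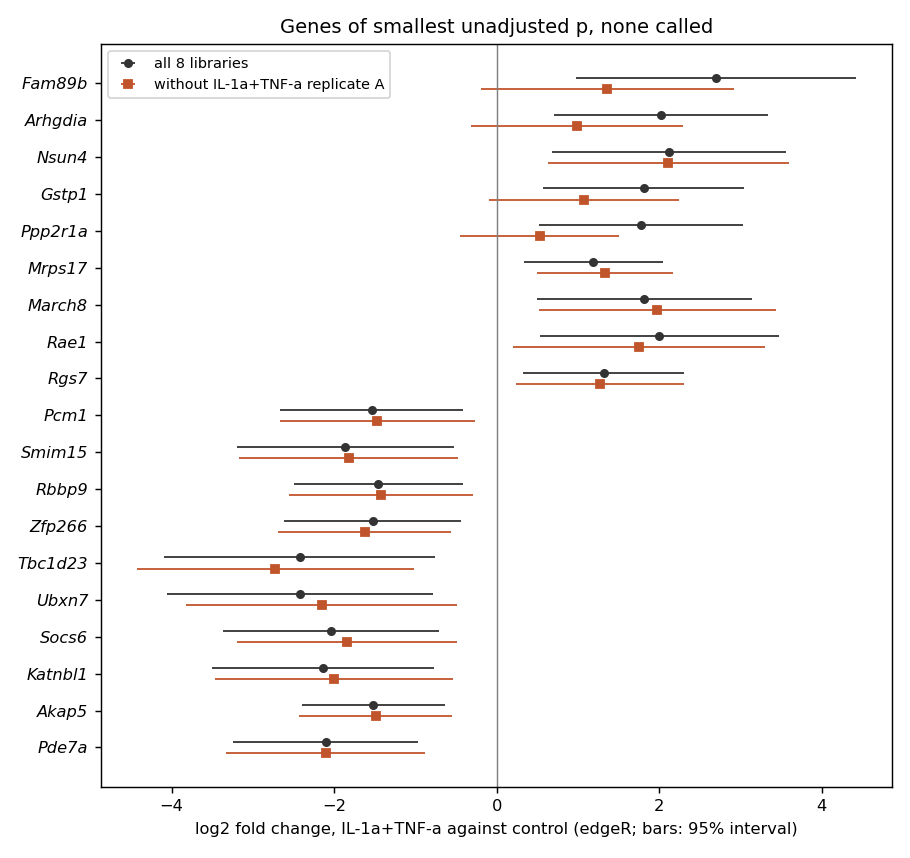
Log2 fold change of stimulated against control ES-motor neurons with its 95% interval, for the 10 lower genes of smallest unadjusted p and 9 of the 10 such higher genes, with all 8 libraries (circles) and without stimulated A (squares). The 10 lower genes stay between −2.72 and −1.42 without library A, while Fam89b, Arhgdia, Gstp1 and Ppp2r1a move toward 0. All were picked by their p with the 8 libraries, so the fit without A is not independent of that choice.

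Long and short genes were not spread evenly over the 143 genes at an unadjusted p under 0.05. The 74 lower genes had a median exon length of 7310 bases and the 69 higher genes 3184 bases, beside 4580.5 bases over the tested genes with a length. Without library A the medians were 6929 and 2916 bases, beside 4668 bases. The count-weighted median exon length of a library was 3567 to 4572 bases in control and 3257 to 3983 bases in the stimulated group. This description was chosen after the values were seen, and the part of RNA quality or library preparation in it was not tested.

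Some genes had counts in 1 group and 0 in all 4 libraries of the other. Of genes with no count in the stimulated group, Chaf1b, a subunit of the chromatin assembly factor, had the highest mean control level, from 6, 258, 16 and 3 counts. Cpeb3, which controls translation of synaptic mRNAs, had 22, 124, 3 and 25 counts in control. Otulinl, 3830408C21Rik and Zfp119a completed the 5 of highest mean level, and control B held most of the counts of each. Of genes with no count in control, Lrrc4c, a synaptic adhesion protein, had 0, 4, 4 and 2 counts in stimulated A to D. Sdcbp2 had 1, 0, 0 and 5, Lpar2 had 0, 1, 14 and 0, and 1700042O10Rik had 0, 0, 0 and 4, and of all 706 genes of this kind 9 had counts in 3 stimulated libraries and 0 in all 4.

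Cytokine response genes were read at a depth where low levels cannot be told apart from absence. Of 35 NF-κB and cytokine response genes, 17 had a count in any of the 8 libraries, beside 18514 of all 55487 Ensembl IDs. Counts were seen for 12 in control and for 13 in the stimulated group, and 1 was tested. That gene, Sod2, the mitochondrial superoxide dismutase, was at 207, 237, 163 and 199 CPM in control and 278, 93.3, 245 and 168 CPM in the stimulated libraries. The groups overlapped, with a log2 fold change of −0.06 (−0.92 to 0.80), and −0.28 without library A. The whole list summed to 240, 256, 176 and 255 CPM in control and 429, 137, 287 and 199.9 CPM in the stimulated libraries, most of it Sod2 in each. Lcn2, Cxcl1 and Ccl7 had 0 counts in all 8 libraries, and the chemokine Ccl2 and the acute phase gene Saa3 each had 2 counts, both in stimulated B.

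Nfkbia, the inhibitor that NF-κB induces to end its own activity, had 6, 84, 1 and 28 counts in control and 11, 5, 5 and 0 in the stimulated libraries. In CPM this was 5.21, 4.37, 4.40 and 14.1 against 87.3, 11.4, 19.2 and 0, so stimulated A was highest and stimulated D lowest, and the groups overlapped. It had too few counts to be tested. Nfkb1 and Rela, subunits of NF-κB, were not tested either. Nfkb1 was at 1.74, 2.60, 0 and 17.6 CPM in control and had 0 counts in the stimulated libraries, where the floor is 3.26 CPM. Rela was at 0, 4.53, 0 and 0 CPM in control and 15.9, 4.55, 22.99 and 0 CPM in the stimulated libraries, from 2, 2, 6 and 0 counts in the latter.

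At this depth the receptors Il1r1, Tnfrsf1a and Tnfrsf1b had 0 counts in all 8 libraries. Of 20 receptor and adaptor genes, 15 were detected in each group and 2 were tested, Chuk, a kinase that marks the NF-κB inhibitor for removal, at −0.59 (−1.75 to 0.57), and −0.39 without library A, and Tab2, an adaptor of the TAK1 kinase, at 0.38 (−1.03 to 1.79). Il1rap, the partner chain of the IL-1 receptor, was at 30.4, 14.3, 22.0 and 16.1 CPM in control and 7.94, 22.8, 7.66 and 0 CPM in the stimulated libraries. The reactive astrocyte list had 12 of 30 genes detected in control and 8 in the stimulated group, at the unequal depth of the groups. Its 2 tested genes, B3gnt5 and S100a10, were at −0.73 and 0.48, and C3 had 0 counts in all 8 libraries. Of 25 interferon and MHC class I genes, 8 were detected in each group, with Psmb10 at 0.82 and B2m at −0.65, or −0.30 without library A, neither called.

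Saa3, Lcn2, Ccl7 and Ccl2 did have counts in the ES-astrocytes of the same stimulated cultures. Saa3 had 1428, 595, 118 and 34 counts in stimulated ES-astrocytes A to D and 0 in all 4 control ES-astrocyte libraries. Lcn2 had 4, 97, 94 and 0 against 0 in control, and Ccl7 had 221, 9, 0 and 26 against 0. Ccl2 had 125, 123, 53 and 0 counts against 30, 0, 35 and 0. The ES-astrocyte libraries held 2019196 to 14831839 counts, more than any stimulated ES-motor neuron library, so the 2 stimulated groups are not matched in depth.

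Whether the response differed between the cell types was tested as an interaction over 16 libraries. Of 11161 tested genes, 0 (0.00%) were called by edgeR, with 297 (2.66%) at an unadjusted p under 0.05. DESeq2 called 0 of 22215 tested genes, with 450 at an unadjusted p under 0.05. Without control ES-astrocyte A, 2 genes were called, L1cam and Mturn, and without stimulated ES-astrocyte B 1 was, Gnb4. A difference above 0 means that the log2 fold change was higher in the ES-motor neurons than in the ES-astrocytes. Among the 12 tested NF-κB and cytokine genes the median difference was 0.64, beside −0.05 over all genes, and 0 were called. In the ES-motor neurons alone only 1 gene of this list, Sod2, had enough counts to be tested. This median thus rests mostly on genes with few neuron counts and does not show a stronger response in the neurons. At an unadjusted edgeR p under 0.05, 0 of the 12 were higher and 1 was lower in the ES-motor neurons. The difference for Saa3 could not be estimated, with 0 counts in both control groups.

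JNK signalling leads to the AP-1 factors, of which Jun is the classical target. Jun was at 52.95, 54.7, 35.2 and 108 CPM in control and 23.8, 56.9, 80.5 and 42.1 CPM in the stimulated libraries. The groups overlapped, with a log2 fold change of −0.27 (−1.39 to 0.85), and −0.06 without library A. Of 27 JNK and AP-1 genes, 12 were tested, 5 were above 0 and the median was −0.19, or −0.23 without library A. Without control C it was 0.0046 with 7 of 12 above 0, so its sign rests on the libraries used. Mapk8, the kinase JNK1, was at −0.77 (−1.80 to 0.25) and the phosphatase Dusp1 at 0.56 (−0.59 to 1.71). Without library A they were at −0.47 and −0.26, and limma-voom gave Dusp1 −0.22 with all 8 libraries, so its sign turned in that fit too. Fos had 3 counts in control D and 1 in stimulated C, and Atf3, a marker of injured neurons, had 1 count in stimulated A and 0 elsewhere.

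None of the tested apoptosis and p53 genes separated the groups. The paper reported reduced survival of motor neurons on astrocytes stimulated in this way. RNA came only from cells that could still be sorted on eGFP after co-culture, so neurons already lost are not covered by these values. Bbc3, a killer protein that p53 induces, had 4, 170, 0 and 10 counts in control and 0, 0, 1 and 0 in the stimulated libraries. Of 30 apoptosis and p53 genes, 11 were tested, with 5 above 0 and a median of −0.05, or −0.17 without library A. The median ran from −0.32 without control D to 0.17 without control C, so its sign rests on the libraries used. The p53 target Ccng1 was at −1.04 (−2.24 to 0.16).

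Among 20 genes of necroptosis, pyroptosis and ferroptosis, 6 were tested, with a median of −0.01, or 0.05 without library A. Fth1, the heavy chain that stores iron, was at 389, 598, 180 and 537 CPM in control and 929, 722, 613 and 652 CPM in the stimulated libraries. All 4 stimulated values were above the controls, stimulated C by little. The log2 fold change was 0.76 (−0.13 to 1.66), and it was not called. The transferrin receptor Tfrc was at −0.87 and the pore-forming Gsdme at −0.42, and without library A they were at −0.58 and −0.09.

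Stress of the endoplasmic reticulum was read from 24 unfolded protein and integrated stress genes, 16 of them tested. Ddit3, the transcription factor CHOP, was at 43.4, 17.9, 30.8 and 47.4 CPM in control and 95.3, 13.7, 91.9 and 105 CPM in the stimulated libraries. Stimulated A, C and D were above all controls and stimulated B was below all of them. The log2 fold change was 1.06 (−0.24 to 2.36), and 0.90 (−0.43 to 2.23) without library A. The list had 10 of 16 above 0 and a median of 0.21 with library A, and 4 of 16 and −0.09 without it.

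The heat shock and oxidative stress list followed library A in the same way. Of 14 tested genes 12 were above 0, with a median of 0.27, against 6 of 14 and −0.17 without library A. Hsp90aa1, the inducible cytosolic chaperone, was at 627, 615, 884 and 612 CPM in control and 286, 423, 582 and 568 CPM in the stimulated libraries. All stimulated values were below the controls, stimulated C and D by little, with a log2 fold change of −0.56 (−1.39 to 0.28). Gpx1 and Prdx1, which remove peroxides, were at 0.80 and 0.76, and at 0.47 and 0.78 without library A. Glycolysis had 6 tested genes, all above 0 with a median of 0.56, and 2 of 6 above 0 with a median of −0.13 without library A. Gpi1, an early enzyme of that pathway, was at 20.0, 57.3, 17.6 and 39.3 CPM in control and 175, 41.0, 99.6 and 31.6 CPM in the stimulated libraries, and its 1.28 became 0.75 without library A.

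The respiratory chain genes encoded in the nucleus leaned to 1 side with and without library A. Of 40 genes, all were tested, 39 had a log2 fold change above 0, and 0 were called, where 52.1% of all tested genes were above 0. Ndufs3 was the exception, at −0.04, and 0.12 without library A. The median was 0.34 beside 0.03 over all tested genes, and 35 of 40 were above 0 with a median of 0.31 without library A. With each of the 8 libraries left out in turn, the median ran from 0.19 with 31 of 40 above 0, without control C, to 0.50 with 39 of 40, without control D. Summed over the list, the levels were 13365, 18194, 9272 and 20108 CPM in control A to D and 19158, 22056, 20399 and 21524 CPM in stimulated A to D. The stimulated libraries were close to each other, and control D lay above stimulated A, so the groups overlapped. Controls A and C were the low ones.

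Ndufb8, a subunit of complex I, was at 875, 1346, 515 and 1194 CPM in control and 1405, 1998, 1835 and 1483 CPM in the stimulated libraries. Sdhb, the iron-sulfur subunit of complex II, was at 729, 895, 625 and 922 CPM in control and 929, 1245, 1318 and 926 CPM in the stimulated libraries. These were the 2 members whose groups did not overlap, 2 of 40 higher, beside 1.07% of all tested genes. Their log2 fold changes were 0.77 and 0.48, neither called.

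Cox5a, a subunit of complex IV, was at 699.7, 976, 449 and 813 CPM in control and 1000.3, 1627, 958 and 1462 CPM in the stimulated libraries, with 0.78 (−0.12 to 1.68). Ndufs7, of complex I, was at 110.2, 224, 70.4 and 336 CPM in control and 580, 323, 551.6 and 199.9 CPM in the stimulated libraries. Atp5d, of the ATP synthase, was at 27.8, 82.6, 22.0 and 35.3 CPM in control and 453, 129.7, 84.3 and 0 CPM in the stimulated libraries. Their groups overlapped, with stimulated A highest for the last 2, and log2 fold changes of 1.14 and 1.91 were 0.94 and 0.85 without it. In DESeq2 the list's median was 0.35 with 39 of 40 above 0, beside 0.04 over the 4479 genes that edgeR tested, a comparison added after seeing the data.

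Other measures moved with this list. Genes of ribosomal proteins took 1.64, 2.23, 1.12 and 2.05% of counts in control A to D and 2.14, 2.80, 1.72 and 2.63% in stimulated A to D. The means were 1.76% and 2.32%, the groups overlapped, and the exact permutation p was 0.171. The 40 genes were also short, with a median exon length of 1918 bases beside 4580.5 bases over the tested genes with a length. The part of either in the level of the list was not tested.

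The 7 tested genes of the respiratory chain encoded in the mitochondrion had a median of −0.02, with 2 above 0, and 0.24 with 7 of 7 above 0 without library A. Leaving out stimulated B instead gave −0.26 with 0 of 7 above 0, and stimulated D −0.25 with 1 of 7, so the direction depends on the libraries used. They include mt-Nd1 at 0.15 and mt-Nd5 at −0.13, or 0.36 and 0.11 without library A, and their summed level was lowest in stimulated A at 13402 CPM and highest in stimulated B at 47065 CPM. The proteasome and ubiquitin list had 20 of 24 tested genes above 0 with a median of 0.35, and 15 of 24 with 0.28 without library A. Its summed level was 11553, 13993, 11476 and 16802 CPM in control and 15148, 15612, 18032 and 16117 CPM in the stimulated libraries. The groups overlapped through control D. Psmb5, a catalytic subunit, was at 0.95 and Sqstm1, an autophagy adaptor, at 1.04, neither called, and without library A they were at 0.26 and 0.66.

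With each of the 8 libraries left out in turn, the medians of 4 of the 18 lists with at least 5 tested genes kept their sign and those of 14 did not. The 4 were the nuclear respiratory chain, proteasome and ubiquitin, cholesterol and trophic factor receptor lists.

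**Figure D4:**
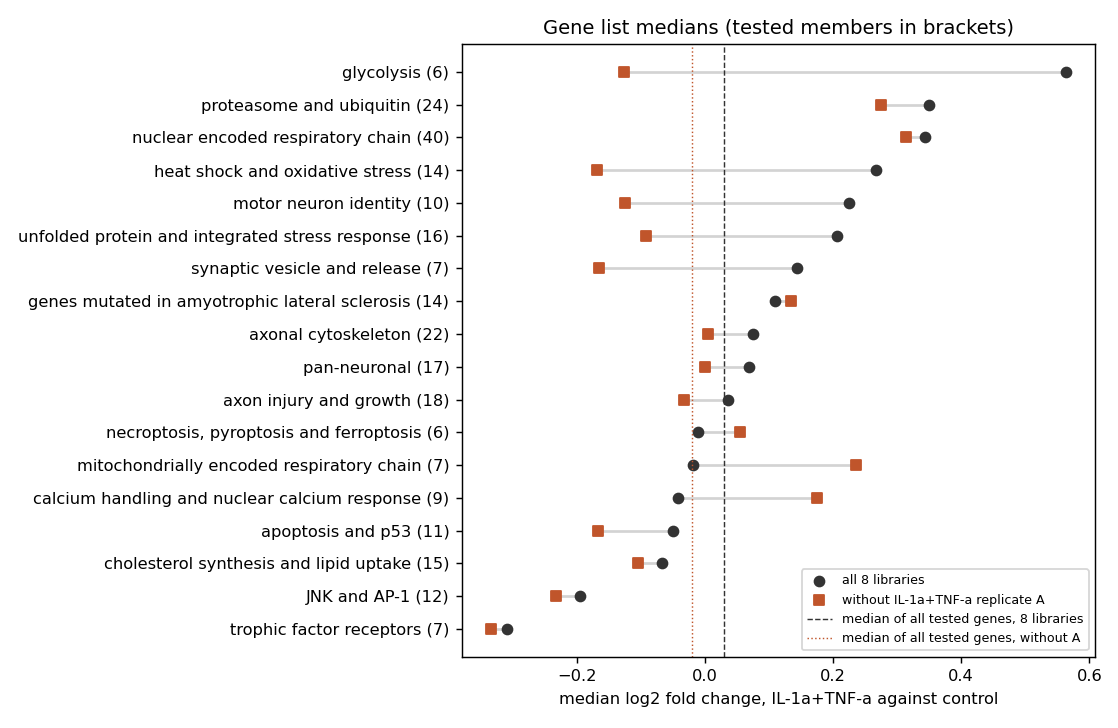
Median log2 fold change of each gene list with at least 5 tested members, stimulated against control ES-motor neurons, with all 8 libraries (circles) and without stimulated A (squares); vertical lines are the medians of all tested genes. The nuclear respiratory chain stays above them, at 0.34 and 0.31, while glycolysis moves from 0.56 to −0.13.

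The cytoskeleton and growth genes of the axon were mixed. Map1b, a microtubule protein of growing axons, was at 22763, 14404, 22706 and 9465 CPM in control and 7003, 4703, 12512 and 6049 CPM in the stimulated libraries. Sox11, a factor for axon growth, was at 31640, 17111, 23335 and 11149 CPM in control and 6661, 7719, 13040 and 10141 CPM in the stimulated libraries. In each, stimulated C was above control D and the other stimulated libraries were below all controls. The log2 fold changes were −1.20 (−2.31 to −0.08) and −1.15 (−2.25 to −0.05), and −1.16 and −1.02 without library A, with neither called.

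Mapt, the axonal protein tau, was at 115, 134, 96.8 and 110.3 CPM in control and 269.9, 132, 310.3 and 158 CPM in the stimulated libraries. Stimulated B lay just below control B and the other 3 were above all controls, with a log2 fold change of 0.92 (0.07 to 1.78). The axonal cytoskeleton list had 12 of 22 tested genes above 0 and a median of 0.08, and the axon injury and growth list 9 of 18 and 0.04, both near the 0.03 of all tested genes. Without library A these medians were 0.0047 and −0.03. Tubb2a was at 1.14 and Marcksl1 at 0.85 with library A, and at 0.48 and 0.39 without it.

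Trophic factor receptors had 7 tested genes, 3 above 0, with the lowest median of the lists with at least 5 tested genes, −0.31, and −0.33 without library A. With each library left out in turn it ran from −0.54 without control B to −0.13 without control C, and limma-voom gave −0.07. Bmpr2, a receptor for bone morphogenetic proteins, was at 282, 149, 374 and 246 CPM in control and 31.8, 109, 138 and 147 CPM in the stimulated libraries. Every stimulated library was below every control, stimulated D by little. The log2 fold change was −1.28 (−2.25 to −0.31), and −1.003 (−1.89 to −0.12) without library A, with an adjusted p of 0.990 over all 8. Ret, the receptor for GDNF signals, was at 1.28 (−0.39 to 2.95) and the TGF-β receptor Tgfbr1 at −0.82, or −0.54 without library A.

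Of 25 synaptic vesicle genes, 7 were tested with a median of 0.14, and −0.16 without library A. Rab3a, which docks vesicles, was at 0.93 and Syt4 at 0.28, and without library A they were at −0.18 and 0.50, so the sign of Rab3a rests on that library. Only 3 of 22 glutamate, GABA and glycine receptor genes were tested, among them Gria2 at 0.52. The 9 tested calcium genes had a median of −0.04, and 0.17 without library A, with the channel subunit Cacna2d1 at −0.71, or −0.44 without it. The 15 tested cholesterol genes had a median of −0.07, or −0.10 without library A, with Fdft1 at 0.93 and Hmgcs1, an early step, at −0.50, and at 0.35 and −0.24 without it.

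Genes mutated in amyotrophic lateral sclerosis, the disease in which motor neurons die, had 14 of 24 members tested, 8 of them above 0, with a median of 0.11. Anxa11, misspelled in the list, is missing from it. Matr3, a nuclear matrix protein, was at −0.71 (−1.61 to 0.19) and Atxn2, which binds RNA, at 1.196 (−0.40 to 2.80). No member of any list was called.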

How the data were processed

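The authors aligned reads with STAR and deposited 1 table of raw counts per gene and sample, unscaled; the labels and methods name no version, genome build or strand setting. Groups follow the sample titles. Of 55487 Ensembl IDs, 55227 were matched to GENCODE M21 (GRCm38) for names and positions. Raw counts were fitted in edgeR 4.0.16 (R 4.3.3) with filterByExpr, TMM scaling and the robust quasi-likelihood test, 4 against 4. The p-values were adjusted by Benjamini-Hochberg over all tested genes. The code was tested on simulated data of lower spread than these libraries, which says nothing of the power here. Intervals are 95%. Alternatives were DESeq2 1.42.0, limma-voom 3.58.1, other scalings, filters, depths, a replicate block and each library left out. Library measures used an exact permutation test. Named genes are 22 fixed ones, the 3 smallest p of each gene list, the 10 smallest p in each direction and the 5 highest with 0 counts in the other group; some of these are not reported here. Members and lists were chosen with earlier results of these data known. Of the list symbols 1, Annxa11, a misspelling of Anxa11, was not found.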

Additional observations from a re-analysis of the deposited data

Results flagged for a closer look

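In groups of 4 libraries, 110 in all, 13 values lay far from the other 3 of their group relative to the range. For independent normal values this would be about 1 group in 20. The groups here hold zeros, genes chosen by their p and measures that share genes, so the 13 are a description only. In stimulated A, 6 of the 13 were found: a ribosomal RNA gene share of 2.74% of counts, a motor neuron identity share of 0.874%, and levels of 5383 CPM for Mnx1, 635 CPM for Slc18a3, 2445 CPM for Tubb3 and 437 CPM for Fam89b, each the highest of its group. Their cause was not tested.

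Control B, the deepest library at 19717324 counts, alone had counts of pluripotency genes, 1.01e-05% of its total. They were 1 count each in Nanog and Esrrb, and any count is flagged where the other controls have 0. Stimulated C had the highest interneuron gene share of its group, 0.00433%. Nfkbia and Nfkb1 were highest among the controls in D, at 14.1 and 17.6 CPM, and Rela in B at 4.53 CPM, with 0 in the other controls. Ddit3 was lowest in its group in stimulated B at 13.7 CPM. Hsp90aa1 was highest among the controls in C at 884 CPM.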

How the results depend on the processing

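DESeq2 called 1 gene and edgeR with no filter 1, and every other alternative for the 8 libraries called 0, including adjusted p at most 0.1 and no minimum fold. No library was under 100000 counts, so that alternative left out nothing. Genes at an unadjusted p under 0.05 were a count followed after seeing the data. They numbered 451 of 18110 tested in DESeq2, 258 of 4479 in limma-voom and 1162 of 18514 with no filter. The stricter filter gave 252 of 7032 and all 20 libraries gave 269 of 9479. Leaving out 1 library gave from 74 of 4428 to 279 of 5427. The labels do not pair the letters, and deviations of same-letter libraries correlated at −0.13 to 0.10 across genes. With the letter as a replicate block edgeR called 0, and 90 of 4479 tested genes were at an unadjusted p under 0.05. The interaction had 0 to 2 calls with 1 library left out. Thinned libraries differed by 196.75 genes detected.

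Of 84 named tested genes, 64 kept their sign throughout and 20 did not, 4 of them only without stimulated A. limma-voom gave Mnx1 −0.11, Tyms 0.40, Tab2 −0.33, Dusp1 −0.22, Mthfd2 −0.15 and Pkm −0.057. No filter gave Nefl −0.10, Stmn2 −0.049 and Pcna −0.083. All 20 libraries gave Nefl −0.049, Stmn2 −0.00048 and Pcna −0.034. RLE gave Vim 0.034 and Sod2 0.0034, thinned controls Vim 0.012, and the replicate block Tyms 0.10. Leaving out 1 library gave Mnx1 −0.43 to 1.02, Slc18a3 −0.0043 to 2.53, Nefl −0.10 to 0.21, Tubb3 −0.019 to 1.59, Stmn2 −0.069 to 0.30, Jun −0.59 to 0.10 and Vim −0.12 to 0.090. It gave Pcna −0.036 to 0.20, Tyms −0.39 to 0.38, Sod2 −0.28 to 0.18, Tab2 −0.20 to 0.78, Dusp1 −0.26 to 0.94, Mthfd2 −0.11 to 1.19 and Rab3a −0.18 to 1.28. For Syt4 it gave −0.40 to 0.51, mt-Nd1 −0.17 to 0.36, mt-Nd5 −0.31 to 0.11, mt-Nd2 −0.65 to 0.24, Aldoa −0.19 to 1.26 and Pkm −0.20 to 0.96. The cause was not tested.

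Depth limits what could be seen: 1 count in the shallowest library is 10.5 CPM, and most genes with counts were left out of the test by the filter. All-gene medians were 0.48 in DESeq2 and −0.39 with no filter, which cover more genes, and 0.04 and −0.13 over the 4479 genes of the main test, chosen after seeing the data.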

Other observations

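Other libraries shared features of stimulated ES-motor neuron library A. Among the ES-motor neurons, replicate A on ES-astrocytes stimulated with IL-1β and IL-6 had 3.85% of its 14329617 counts in ribosomal RNA genes and 0.552% in motor neuron identity genes. Among the ES-astrocytes, stimulated B had 2.33% in ribosomal RNA genes and Actb at 12528 CPM, and control A had 0.815% and 2378 CPM, against 37290.4 to 92321 CPM of Actb in the other 6 ES-astrocyte libraries. CPM here are scaled over 16 libraries.

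Mnx1 RNA was found in sorted ES-astrocytes too, with 199, 33, 0 and 1 counts in control A to D and 2, 0, 0 and 0 in stimulated A to D, in libraries of 2019196 to 14831839 counts.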
